A study of Mus musculus with 24 samples.

Results

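Astrocyte identity and reactive astrocyte genes were described in whole brain hemispheres shortly after focal ischaemia. The set was a list of 32 genes, 12 that mark resting astrocytes and 20 that are known to rise when astrocytes become reactive. Members were taken by symbol, with no threshold on a measured value. Of these, 31 were measured, each by 1 probe set, among 19505 genes with a symbol on the array. They comprised 11 of the 12 identity genes and all 20 reactive genes, and Glul was not analysed here. The animals were C57Bl/6j males, 8 to 10 weeks old. Intraluminal occlusion of the middle cerebral artery (MCAO) for 90 min was done in 8 of them, and the tissue was collected after 30 min of reperfusion, 2 h after onset. Sham surgery was done in the remaining 4. Brains were perfused with saline, and the ipsilateral and the contralateral hemisphere of each mouse were hybridised to an array of their own, giving 24 arrays. The labels call the sides of MCAO brains ischemic and healthy. A whole hemisphere holds ischaemic and spared tissue and all brain cell types, so in such bulk samples fewer cells of a type and less RNA per cell cannot be told apart.

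Astrocytes clear synaptic glutamate, buffer potassium and bicarbonate, couple to one another through gap junctions and supply neurons with metabolic substrates. After injury they become reactive: intermediate filaments accumulate, and secreted acute phase proteins, cytokine receptors and membrane proteins are induced, in large part downstream of interleukin-1 and of the gp130 receptors that signal through JAK kinases and STAT3. In stroke models this response is usually described from the first days onward, and it is marked above all by Gfap, Vim, Lcn2 and Serpina3n.

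Signals are on the log2 scale per probe set, so a difference of 1 unit is a doubling, and levels of different genes were not compared because each probe set has its own response. A probe set was taken as above background on an array where it exceeded the 95th percentile of that array's negative control probe sets. Both hemispheres of MCAO mouse 3 and of sham mouse 1 stood apart. On these 4 arrays 3.0 to 5.1% of probe sets were above background, against 37.0 to 45.1% on the other 20, and the background itself was 7.41 to 7.607 against 5.168 to 5.739. On these 4 arrays 3 of the 11 identity genes were above background at least once and 0 of the 20 reactive genes were. For 10 of the 11 identity genes all 4 values lay below the lowest of the other 20, Sox9 being the exception. Among reactive genes, Gfap, Stat3, Tm4sf1 and S100a10 were likewise lower on all 4 arrays, whereas Ptx3, Steap4, Slc10a6, B3gnt5, Tgm1 and Emp1 were higher on all 4 than on any of the other 20. Each comparison was therefore made on all 24 arrays and again without these 4, which leaves 7 MCAO and 3 sham mice. Levels below are those of the 20 arrays unless stated.

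The comparison of the ischaemic with the opposite hemisphere of the same mice asked whether astrocyte genes had begun to respond. None of the 31 genes passed an adjusted p of 0.05 in limma, on all arrays or without the 4. Over all probe sets tested, 0.0856% were called on all arrays and 0.135% without the 4. At an unadjusted p under 0.05 the count was 2 of 31 on all arrays, Sox9 and Il1r1, where 4.13% of all probe sets passed. Without the 4 arrays it was 4 of 31, with Emp1 and Cd109 added, where 7.1% passed. The median difference of the identity genes was 0.16 on all arrays and 0.04 without the 4, and that of the reactive genes was 0.04 and 0.00, beside 0.00 for all genes in both. Without the 4 arrays the 95% interval of the difference lay within a 1.5-fold change in either direction for 10 of the 11 identity genes and for 4 of the 4 reactive genes above background on every one of the 20 arrays. On all arrays the counts were 8 and 4. The other 16 reactive genes were dim on at least some arrays, and an interval between dim signals says little of their expression.

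**Figure D1:**
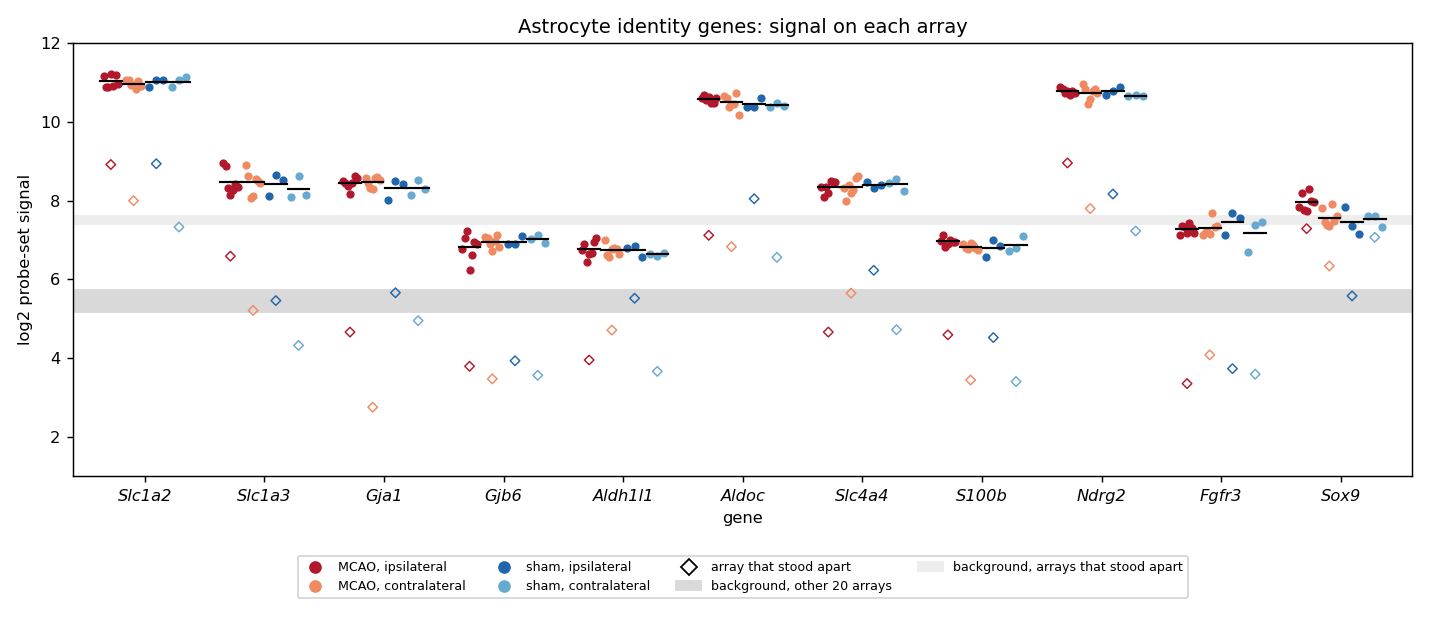
Log2 probe-set signal (y axis) of the 11 measured astrocyte identity genes (x axis) on each array, with filled points for the 20 arrays, open diamonds for the 4 that stood apart, bars for the mean of the filled points of a group, and grey bands for the range of the background. All filled points lie above the darker band and the MCAO sides overlap for every gene, while the open diamonds of 10 genes lie below all filled points.

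All 11 identity genes were above background on 20 of 20 arrays. The glutamate transporter genes came first among their roles. Slc1a2, which encodes the main glutamate transporter of forebrain astrocytes (GLT-1), ranged from 10.88 to 11.21 with a median of 10.97 in the ischaemic hemispheres, and from 10.85 to 11.07 with a median of 10.95 in the opposite ones. The 3 sham mice had 10.89, 11.08 and 11.06 ipsilaterally and 10.88, 11.06 and 11.15 contralaterally. The groups overlapped throughout, and the difference between the sides of MCAO brains was 0.06 ± 0.08 (SE, n = 7 mice, 95% interval -0.11 to 0.22). Slc1a3, the gene of the related transporter GLAST, ranged from 8.14 to 8.96 on the ischaemic side and from 8.07 to 8.92 on the other, with a difference of 0.01 ± 0.09 (interval -0.18 to 0.20). On all arrays the differences were 0.16 ± 0.17 and 0.18 ± 0.17. MCAO mouse 3 carried much of them, with Slc1a2 at 8.92 and 8.00 and Slc1a3 at 6.59 and 5.21 on its ipsilateral and contralateral arrays.

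The gap junction genes were also close on both sides. Gja1, which encodes the main connexin of astrocytes, ranged from 8.18 to 8.63 ipsilaterally and from 8.30 to 8.61 contralaterally, with a difference of -0.03 ± 0.07 (interval -0.19 to 0.12). Gjb6, a second connexin gene of astrocytes, had a median of 6.89 (6.24 to 7.22) on the ischaemic side and of 6.97 (6.71 to 7.13) on the other. Its sham values were 6.90, 6.89 and 7.09 ipsilaterally and 7.03, 7.13 and 6.93 contralaterally. The groups overlapped, with MCAO mouse 5 lowest on the ischaemic side at 6.24 and mouse 4 highest at 7.22. The difference was -0.13 ± 0.10 (interval -0.35 to 0.09, adjusted p = 0.886 in limma), and Gjb6 was higher on the ischaemic side in 3 of 7 mice. On all arrays it was -0.07 ± 0.13.

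Among the genes of metabolism and ion transport, Aldoc, which encodes the brain form of the glycolytic enzyme aldolase, had a median of 10.60 (10.48 to 10.68) on the ischaemic side and 10.47 (10.17 to 10.74) on the other. Sham values were 10.37, 10.38 and 10.60 ipsilaterally and 10.39, 10.49 and 10.41 contralaterally. Contralateral values of MCAO mice spread more widely, from mouse 8 at 10.17 to mouse 7 at 10.74, and the 4 groups overlapped. The side difference was 0.08 ± 0.09 (interval -0.11 to 0.27), with 5 of 7 mice higher on the ischaemic side. Aldh1l1, a folate enzyme gene used as a pan-astrocyte marker, differed by 0.04 ± 0.10 (interval -0.17 to 0.25). Slc4a4, the gene of the electrogenic sodium bicarbonate cotransporter, differed by 0.00 ± 0.08 (interval -0.17 to 0.17). The interval of each of the 3 ran from a negative to a positive value.

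The signalling and transcription genes included Sox9, the identity gene of smallest p. Sox9, a transcription factor that specifies glia and marks astrocytes in the adult brain, had a median of 7.96 on the ischaemic side of MCAO brains, with a lowest value of 7.73 and a highest of 8.30. On the opposite side the median was 7.49, from 7.36 to 7.91. Sham values were 7.85, 7.35 and 7.16 ipsilaterally and 7.62, 7.62 and 7.34 contralaterally. The ischaemic hemispheres were thus the highest group. Their range overlapped that of the opposite hemispheres and of the sham ipsilateral ones, and lay above the 3 sham contralateral values. Within mice the difference was 0.02 in MCAO mouse 1, 0.76 in mouse 2, 0.38 in mouse 4, 0.37 in mouse 5, 0.39 in mouse 6, 0.49 in mouse 7 and 0.35 in mouse 8. Sox9 was higher on the ischaemic side in 7 of 7 mice, by as little as 0.02 in mouse 1, and the estimate was 0.39 ± 0.10 (interval 0.19 to 0.60), or 1.31-fold (1.14 to 1.52). The unadjusted limma p was 0.00119 and the adjusted p 0.256, so the difference did not pass over all probe sets. On all arrays it was 0.46 ± 0.16 (adjusted p = 0.94, higher in 8 of 8 mice). Over all settings tried the estimate lay between 0.33 and 0.53 and the adjusted p between 0.0125 and 1.0. The lowest of these came without the 4 arrays and with a variance prior that follows the signal and is robust to outliers, a combination added after seeing the data, and it was the 1 setting in which any of the 31 genes passed.

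Values of oligodendrocyte markers are given beside Sox9 because 1 of them had a similar pattern. Sox10, a transcription factor gene of the oligodendrocyte lineage, was at 0.34 ± 0.10 between the sides of MCAO brains (adjusted p = 0.447 in limma, higher in 6 of 7 mice) and at -0.22 ± 0.16 in sham brains, with an interaction of 0.56 ± 0.19 (adjusted p = 0.689). Of the 10 measured markers of the lineage, 0 were called, where 0.135% of all probe sets were. The median was 0.07 and 9 were positive, a count of genes on the same arrays that was not tested. By mouse that median was positive in 6 of 7 MCAO mice (-0.19 in mouse 1, 0.04 to 0.28 in the others) and -0.18 to -0.08 in the 3 sham mice. The mean level of the list was 7.81 to 8.14 on ischaemic and 7.61 to 8.11 on opposite sides, and 7.80 to 7.87 and 7.91 to 7.99 on the ipsilateral and contralateral sides of sham brains. Of the 10 markers, 9 were above background on all 14 MCAO arrays. The part of these cells in the Sox9 difference was not tested.

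The other 3 signalling and transcription genes lay near 0. S100b, which encodes a calcium-binding protein of astrocytes, had a median of 6.95 (6.83 to 7.14) on the ischaemic and 6.81 (6.75 to 6.93) on the opposite side. Its sham values were 6.56, 7.01 and 6.84 ipsilaterally and 6.72, 6.80 and 7.11 contralaterally. It was higher on the ischaemic side in 6 of 7 mice, yet the sham values spanned the range of both MCAO groups but for the highest, 7.14. The difference was 0.13 ± 0.08 (interval -0.05 to 0.31, adjusted p = 0.821 in limma), and 0.26 ± 0.16 on all arrays. Ndrg2, an astrocyte-enriched gene of the NDRG family, differed by 0.04 ± 0.08 (interval -0.13 to 0.20). Fgfr3, a fibroblast growth factor receptor gene, differed by -0.02 ± 0.08 (interval -0.19 to 0.15).

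**Figure D2:**
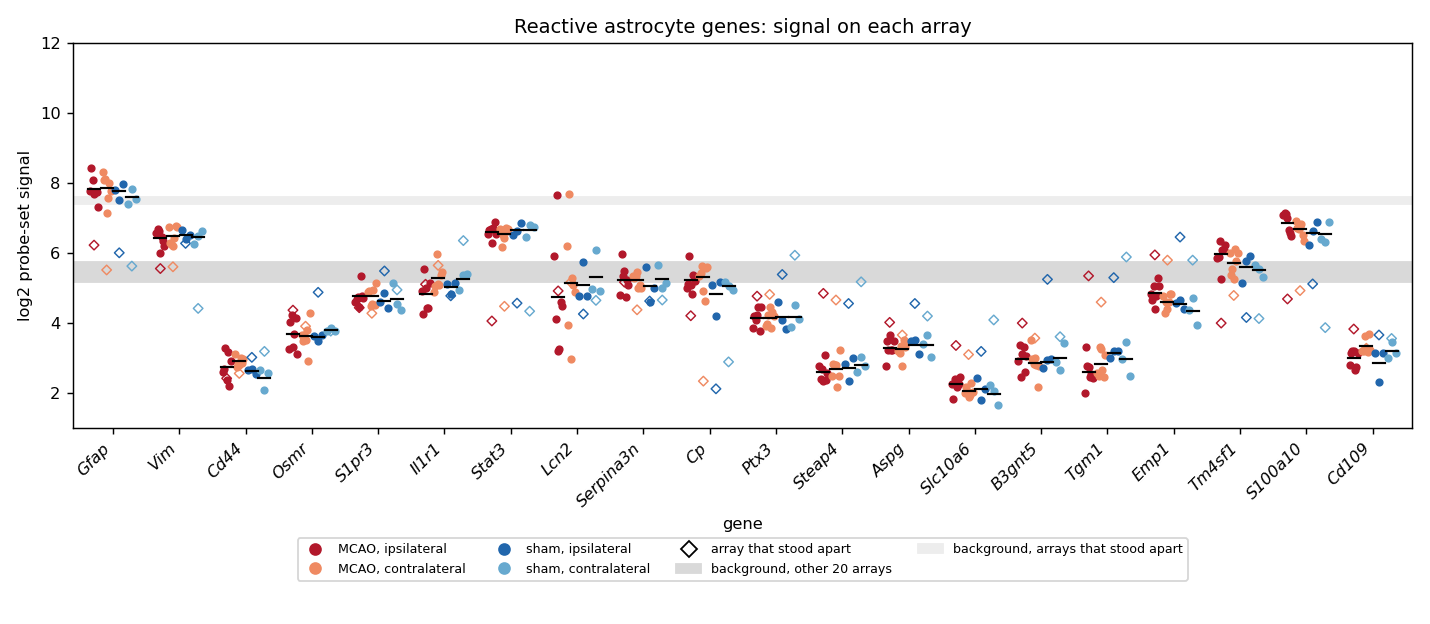
Log2 probe-set signal (y axis) of the 20 reactive astrocyte genes (x axis) on each array, with filled points for the 20 arrays, open diamonds for the 4 that stood apart, bars for the mean of the filled points of a group, and grey bands for the range of the background. The filled points of Gfap, Vim, Stat3 and S100a10 all lie above the darker band, 10 genes lie below their arrays' background on every array, and Lcn2 has the widest range, from 2.96 to 7.69.

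The reactive genes split by whether they could be measured. Gfap, Vim, Stat3 and S100a10 were above background on 20 of 20 arrays. Another 6 passed on some arrays, namely Tm4sf1 on 13, Lcn2 on 6, Cp on 5, Serpina3n on 3, Il1r1 on 2 and S1pr3 on 1. The other 10, Cd44, Osmr, Ptx3, Steap4, Aspg, Slc10a6, B3gnt5, Tgm1, Emp1 and Cd109, were not above background on any of the 24 arrays, in MCAO or sham brains. Differences of these genes are between signals that did not exceed the background cut-off. Their log2 differences are given below, but they say little of expression and are not turned into folds.

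The intervals of both intermediate filament genes ran from a negative to a positive value between the sides of MCAO brains. Gfap, whose protein is the classical marker of reactive astrocytes, had a median of 7.75 (7.32 to 8.45) in ischaemic hemispheres and of 8.00 (7.15 to 8.31) in the opposite ones. Sham values were 7.81, 7.51 and 7.98 ipsilaterally and 7.40, 7.84 and 7.54 contralaterally. The groups overlapped, and Gfap was higher on the ischaemic side in 3 of 7 mice, with a difference of -0.03 ± 0.14 (interval -0.33 to 0.28). On all arrays it was 0.07 ± 0.15 (interval -0.26 to 0.39). Vim, the gene of vimentin, which vascular cells also express, ranged from 6.01 to 6.70 ipsilaterally and from 6.20 to 6.78 contralaterally, with a difference of -0.06 ± 0.12 (interval -0.33 to 0.21).

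Of the receptors and signalling genes, Stat3 was well measured. This transcription factor, which is activated by phosphorylation and raises transcription of reactive genes, ranged from 6.28 to 6.88 on the ischaemic and from 6.19 to 6.73 on the opposite side. The difference was 0.07 ± 0.09 (interval -0.13 to 0.27), and 0.01 ± 0.12 on all arrays. Il1r1, the receptor gene for interleukin-1, had a median of 4.93 (4.27 to 5.56) on the ischaemic side and 5.11 (4.88 to 5.98) on the other. Sham values were 5.11, 4.83 and 5.15 ipsilaterally and 4.96, 5.37 and 5.41 contralaterally. Il1r1 was above background on 1 of 7 arrays of each MCAO side and on 0 of 6 sham arrays. It was lower on the ischaemic side in 6 of 7 mice, with mouse 1 the exception, and the difference was -0.45 ± 0.13 (interval -0.73 to -0.18, adjusted p = 0.374 in limma). On all arrays it was -0.46 ± 0.17 (adjusted p = 0.94). Since most of these signals lay under the background, the value is a difference between dim signals. The sphingosine 1-phosphate receptor gene S1pr3 was at -0.02 ± 0.12, the hyaluronan receptor gene Cd44 at -0.16 ± 0.13 and the oncostatin M receptor gene Osmr at 0.06 ± 0.21. S1pr3 was above background on 1 array and the latter pair on 0.

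Among the secreted and acute phase genes, Lcn2, which encodes the iron-scavenging protein lipocalin-2, had the greatest spread between animals. Its median was 4.50 (3.21 to 7.66) on the ischaemic side and 5.08 (2.96 to 7.69) on the opposite side. Sham values were 4.77, 5.76 and 4.78 ipsilaterally and 4.98, 6.09 and 4.92 contralaterally. Signals above background came from both sides of MCAO mice 1 and 4 and of sham mouse 3, and the groups overlapped widely. The side difference was -0.40 ± 0.21 (interval -0.85 to 0.06, adjusted p = 0.791 in limma), higher on the ischaemic side in 2 of 7 mice. MCAO mouse 6 was at -2.05 and the other 6 between -0.48 and 0.25, and without mouse 6 the estimate was -0.12 (adjusted p = 0.91). Serpina3n, the gene of a serine protease inhibitor and a standard marker of reactive astrocytes, was at 0.01 ± 0.12 (interval -0.25 to 0.28) and above background on 3 of 20 arrays. Cp, which encodes the copper oxidase ceruloplasmin, was at -0.09 ± 0.13, and Ptx3, the gene of a pentraxin of innate immunity, at 0.02 ± 0.15 with all its signals below background.

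The 5 transporter and enzyme genes were below background on every array. They were the metalloreductase gene Steap4, the asparaginase gene Aspg, the bile acid family transporter gene Slc10a6, the glycosyltransferase gene B3gnt5 and the transglutaminase gene Tgm1. Their values differed between the sides of MCAO brains by -0.22 (Tgm1) to 0.19 (Slc10a6), with standard errors of 0.11 to 0.17. None of these was measured well enough to show a level.

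The membrane-associated genes were S100a10, Tm4sf1, Emp1 and Cd109. S100a10, which encodes an annexin A2 partner and has been used as a marker of astrocytes in ischaemic brain, had a median of 7.01 (6.50 to 7.14) on the ischaemic side and of 6.71 (6.36 to 6.91) on the other. Sham values were 6.22, 6.64 and 6.90 ipsilaterally and 6.41, 6.33 and 6.90 contralaterally. MCAO mice 1, 2, 4 and 5 were the highest ipsilaterally, at 7.01 to 7.14, above every other array, while mice 6, 7 and 8 lay within the range of the sham arrays. S100a10 was higher on the ischaemic side in 6 of 7 mice, by 0.19 ± 0.09 (interval -0.01 to 0.40, adjusted p = 0.732 in limma), and by 0.14 ± 0.15 on all arrays. Tm4sf1, a tetraspanin-like gene also expressed by endothelium, had a median of 6.08 (5.27 to 6.36) against 5.78 (5.27 to 6.12). Its sham values were 5.14, 5.79 and 5.91 ipsilaterally and 5.65, 5.55 and 5.32 contralaterally. It was above background on 6 of 7 ischaemic and 4 of 7 opposite hemispheres, the groups overlapped, and the difference was 0.25 ± 0.14 (interval -0.05 to 0.54, adjusted p = 0.8).

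Emp1 and Cd109 had p-values under 0.05 before adjustment without the 4 arrays, but both were dim. Emp1, the gene of an epithelial membrane protein, had a median of 4.84 (4.40 to 5.29) on the ischaemic side and of 4.61 (4.29 to 4.82) on the other. Sham values were 4.58, 4.66 and 4.41 ipsilaterally and 4.36, 4.71 and 3.95 contralaterally. The difference was 0.26 ± 0.09 in MCAO mice (adjusted p = 0.548 in limma), higher in 6 of 7, and 0.21 ± 0.14 in sham mice. Cd109, which encodes a membrane-anchored co-receptor that restrains TGF-beta signalling, had a median of 3.14 (2.67 to 3.20) against 3.24 (3.16 to 3.68). Its sham values were 3.15, 2.31 and 3.14 ipsilaterally and 3.00, 3.46 and 3.15 contralaterally. It was lower on the ischaemic side in 7 of 7 MCAO mice, by -0.35 ± 0.15 (adjusted p = 0.663), and the sham estimate was -0.34 ± 0.23. The Cd109 sham estimate rests on sham mouse 3 at -1.15, and without it was 0.07 ± 0.20. All signals of both genes were below background. On all arrays the estimates were 0.24 ± 0.12 and -0.24 ± 0.17, since Cd109 was higher on the ischaemic side of MCAO mouse 3.

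**Figure D3:**
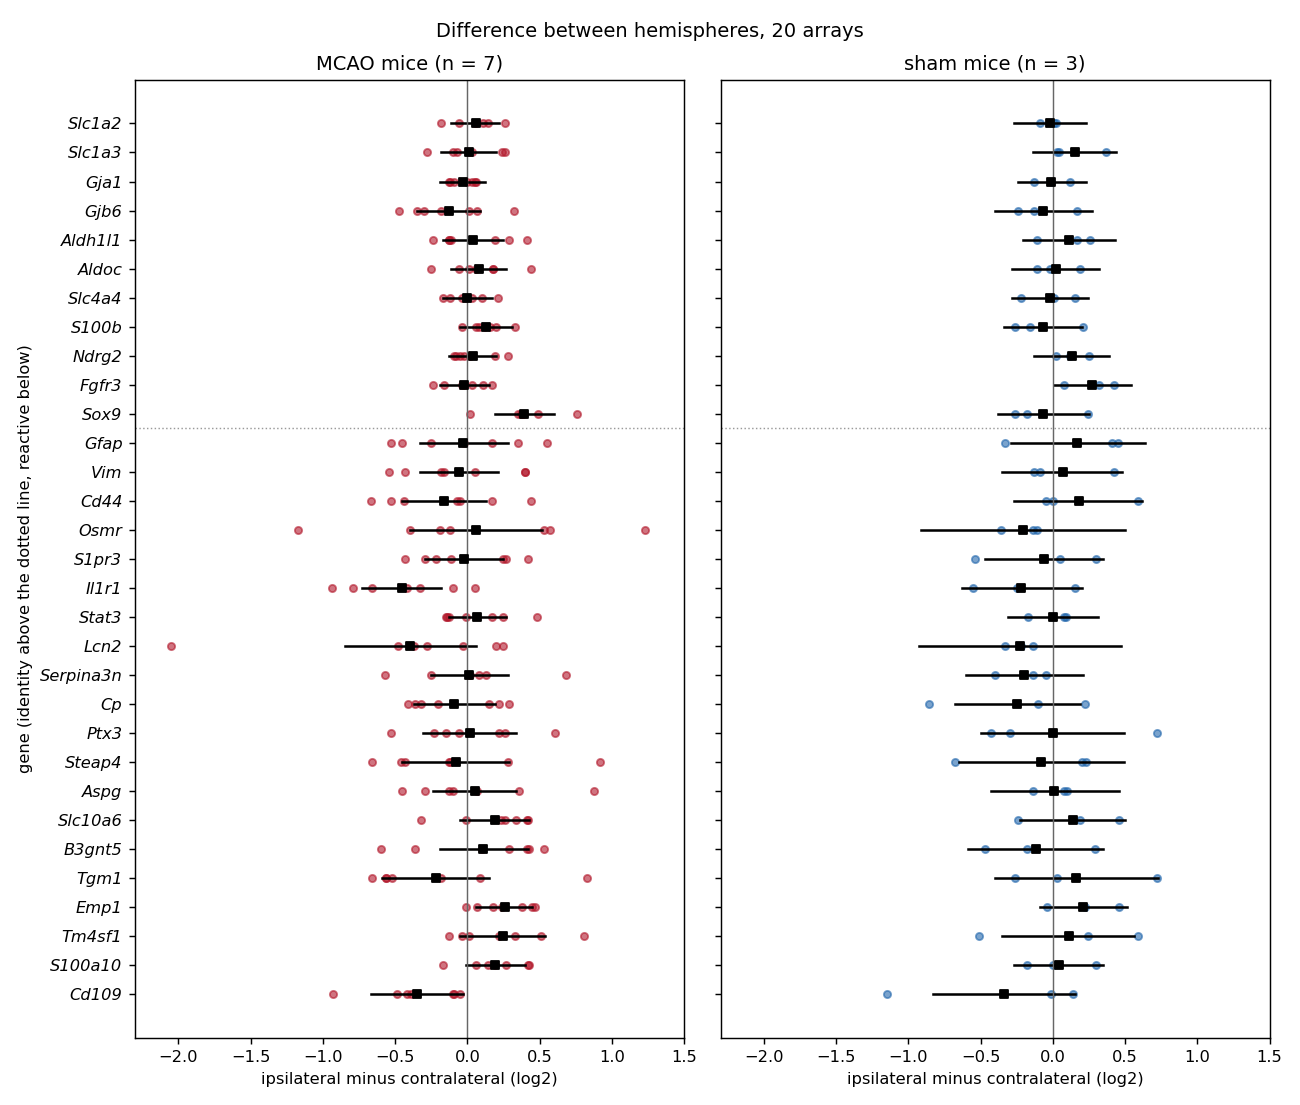
Ipsilateral minus contralateral log2 signal (x axis) of the 31 genes (y axis) without the 4 arrays that stood apart, in 7 MCAO mice (left) and 3 sham mice (right), with coloured points for single mice, squares for the limma estimate and lines for its 95% interval. Sox9 is the 1 identity gene whose MCAO interval excludes 0 (0.19 to 0.60), and the Lcn2 point of MCAO mouse 6 lies apart at -2.05.

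Sham brains show how far the sides differ without an occlusion. None of the 31 genes was called, where 0.0% of all probe sets were called on all arrays and 0.0% without the 4. At an unadjusted p under 0.05 there was 1 gene on all arrays, Il1r1 at -0.56 ± 0.23 (where 6.26% of probe sets passed). That value rests on sham mouse 1 at -1.57, was -0.22 ± 0.19 without the 4 arrays, and comes from signals below background. Without the 4 there was 1 gene, Fgfr3 at 0.27 ± 0.12 (where 5.49% passed). On all arrays the identity genes were shifted toward the ipsilateral side, with a median of 0.33 and 10 of 11 positive, beside 0.00 for all genes. Without the 4 arrays the median was -0.01 with 5 of 11 positive. The shift lay in sham mouse 1, where the median over identity genes was 1.12, while sham mice 2, 3 and 4 had 0.01 to 0.12. In MCAO mouse 3 the median was 0.92, and it was -0.09 to 0.11 in the other 7. Neuronal markers moved in the same mice, with medians of 1.93 in sham mouse 1 and 0.98 in MCAO mouse 3 against -0.07 to 0.15 in the other 10. The mean level of the identity genes on the ipsilateral and contralateral arrays was 5.98 and 5.13 in sham mouse 1, and 5.81 and 5.30 in MCAO mouse 3, where all other arrays had 8.30 to 8.59.

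Whether the side difference depended on the surgery was tested as an interaction. None of the 31 genes was called, with 0.0% of probe sets called on all arrays and 0.0% without the 4. At an unadjusted p under 0.05 Sox9 was the 1 gene on both, where 5.12% and 5.91% of probe sets passed. The side difference of Sox9 was -0.07 ± 0.15 in sham mice without the 4 arrays, at 0.24, -0.26 and -0.18 in mice 2, 3 and 4, and the interaction was 0.46 ± 0.17 (interval 0.09 to 0.84, adjusted p = 0.742 in limma). On all arrays the interaction was 0.89 ± 0.28 (adjusted p = 0.891), a value that rests on sham mouse 1, whose Sox9 signal was 5.58 ipsilaterally and 7.07 contralaterally, both below background. Without the 4 arrays the interaction was -0.20 ± 0.26 for Gfap (interval -0.75 to 0.35) and 0.07 ± 0.17 for Stat3 (interval -0.30 to 0.44). With 3 sham mice the interval stayed within a 1.5-fold change for 9 of 11 identity genes and for 2 of the 4 reactive genes measured on every array.

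The ischaemic hemispheres were then compared with the ipsilateral hemispheres of sham mice. None of the 31 genes was called, where 0.0045% of probe sets were called on all arrays and 0.149% without the 4. At an unadjusted p under 0.05 there was Sox9 on all arrays (1.01% of probe sets passed), and Sox9 and Tgm1 without the 4 (7.48% passed). Sox9 was 0.51 ± 0.17 higher in MCAO mice (interval 0.15 to 0.88, adjusted p = 0.475 in limma), with overlapping groups, since sham mouse 2 at 7.85 lay within the MCAO range. These comparisons share the ischaemic arrays with the side comparison. On all arrays the Sox9 difference was 0.90 ± 0.36 (adjusted p = 0.968 in limma). Those arrays include the ipsilateral one of sham mouse 1, with Sox9 at 5.58, below background. Tgm1 was at -0.52 ± 0.21 (adjusted p = 0.619), with all signals below background. Gfap differed by 0.07 ± 0.20 (interval -0.36 to 0.50), Vim by -0.11 ± 0.16, Stat3 by -0.05 ± 0.14 and S100a10 by 0.29 ± 0.19. The median was 0.03 for identity and 0.09 for reactive genes, beside 0.01 for all genes. On all arrays the medians were 0.30 and -0.07, beside 0.05, and the standard errors of identity genes reached 0.85.

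The contralateral hemispheres of MCAO and sham mice asked whether the unoccluded side differed. None of the 31 genes was called, with 0.0% of probe sets called on all arrays and 0.0% without the 4. At an unadjusted p under 0.05 there were 0 genes on all arrays (0.365% of probe sets passed) and 1 without the 4 (4.59% passed), Cd44 at 0.46 ± 0.14 (adjusted p = 1.0 in limma). Its values were 2.75 to 3.13 in MCAO mice and 2.66, 2.09 and 2.58 in sham mice, and all were below background. Sox9 was at 0.05 ± 0.15 and Gfap at 0.27 ± 0.21 (interval -0.19 to 0.73). The median was 0.07 for identity and 0.03 for reactive genes without the 4 arrays, beside 0.01 for all genes. On all arrays identity genes had a median of 0.52 with 11 of 11 positive, and sham mouse 1, at a mean identity level of 5.13, is 1 of the 4 sham arrays in that comparison.

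**Figure D4:**
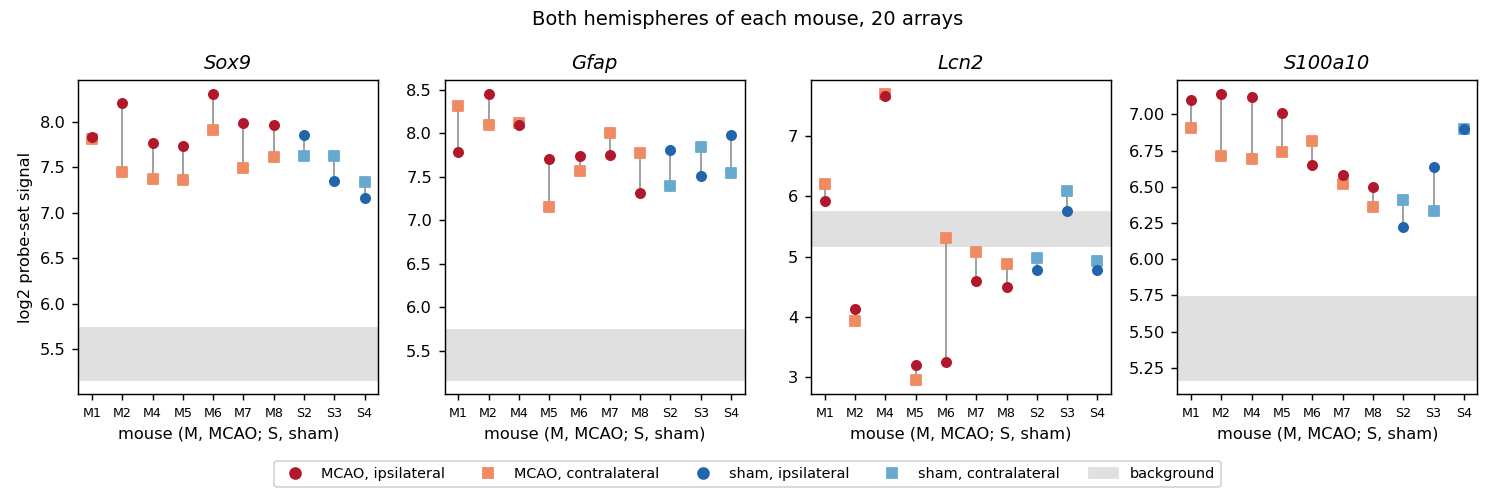
Log2 probe-set signal (y axis, scaled to each gene) of Sox9, Gfap, Lcn2 and S100a10 in both hemispheres of each mouse (x axis) on the 20 arrays, with circles for ipsilateral and squares for contralateral hemispheres, a line joining the sides of a mouse and a grey band for the background. Sox9 circles lie above the squares in 7 of 7 MCAO mice, Gfap has no common direction, and both Lcn2 values of MCAO mouse 4 lie near 7.7.

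For 6 of the 31 genes the mouse means spread more widely than the side differences, and Lcn2 had the widest spread. The others were Gja1, Slc1a3, Slc4a4, Emp1 and S100a10, with SDs of mouse means of 0.15 to 0.27. Emp1 was below background on every array. A mean of 2 arrays varies less than a difference between 2 arrays even where the sides are unrelated. The comparison therefore does not show that the remaining genes lack a difference between mice. The means cover MCAO and sham mice together. For Lcn2 the mean of both hemispheres ranged from 3.08 in MCAO mouse 5 to 7.67 in MCAO mouse 4. Its SD over 10 mice was 1.26, while the SD of its side differences was 0.64. In MCAO mice the values were 5.92 and 6.20 (ipsilateral and contralateral) in mouse 1, 4.13 and 3.94 in mouse 2, 7.66 and 7.69 in mouse 4, 3.21 and 2.96 in mouse 5, 3.25 and 5.30 in mouse 6, 4.60 and 5.08 in mouse 7, and 4.50 and 4.88 in mouse 8. Of these signals, those of mice 1 and 4 were above background and those of mice 2, 5, 6, 7 and 8 were not. Apart from mouse 6, a mouse with a higher signal on one side had a higher signal on the other. The correlation between the sides over the 7 MCAO mice was r = 0.87 (exact permutation p = 0.00853) and rho = 0.79 (exact permutation p = 0.048). After Benjamini-Hochberg adjustment over the 31 genes, a test chosen after seeing the data, the exact permutation p-values were 0.166 and 0.372, and without the 2 mice farthest from the median r was 0.55. The relation therefore did not pass the adjustment and rested in part on those 2 mice. Among identity genes, Gja1 and Slc4a4 had r = 0.83 and Slc1a3 r = 0.81. Without the 2 mice farthest from the median, r was 0.43 for Gja1, 0.59 for Slc4a4 and 0.75 for Slc1a3. Cp had the highest rank correlation, rho = 0.93 (exact permutation p = 0.00675, adjusted 0.209), with r = 0.68. Its signal was above background on 5 of 20 arrays. None of the 31 passed. For Sox9 the SD of the mouse means was 0.23 and that of the side differences 0.31, and for Gfap 0.27 and 0.40.

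Other genes of the same biology were taken from lists drawn up with earlier results of these data known. A gene called in them is therefore not independent support. Of 29 measured further astrocyte-enriched genes, such as those of water and potassium channels, 0 were called between the sides of MCAO brains in limma, where 0.0856% of all probe sets were called on all arrays and 0.135% without the 4. There were 2 at an unadjusted p under 0.05 on all arrays and 0 without the 4, where 4.13% and 7.1% of all probe sets passed. The smallest p-values were those of Pla2g7, a platelet-activating factor hydrolase gene, at 0.22 ± 0.10 (adjusted p = 0.726), and of Atp1b2, a sodium pump subunit gene, at 0.16 ± 0.08 (adjusted p = 0.771). Each was higher on the ischaemic side in 7 of 7 mice. The median of the list was 0.08 without the 4 arrays and 0.14 on all arrays, with 23 and 25 of 29 positive. The genes share arrays, and the count of positive genes was not tested. By mouse that median lay between -0.06 (mouse 1) and 0.17 (mice 4 and 5) in the 7 MCAO mice. The median over all genes was 0.00 on both sets of arrays.

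Of 20 measured further reactive genes, 1 was called, higher on the ischaemic side. The share called over all probe sets was 0.0856% on all arrays and 0.135% without the 4. Ptgs2, the inducible cyclooxygenase, which neurons and other cells also induce, was 1.38 ± 0.17 higher without the 4 arrays (2.60-fold, adjusted p = 0.00435 in limma, 7 of 7 mice) and 1.63 ± 0.24 on all arrays (adjusted p = 0.00762, 8 of 8 mice). Its means were 7.97 and 6.60 on the ischaemic and opposite sides and 5.87 and 5.98 in sham mice. Against sham ipsilateral hemispheres it was 2.10 ± 0.22 higher (adjusted p = 0.000181), and 2.00 ± 0.30 on all arrays, where it was not called (adjusted p = 0.195). The interaction with surgery was 1.48 ± 0.31 without the 4 arrays and was not called (adjusted p = 0.291). The list median was 0.04, and 12 of the 20 genes were below background on all 14 MCAO arrays. Cd14, a lipopolysaccharide co-receptor gene, was at 0.50 ± 0.14 (adjusted p = 0.385), higher in 7 of 7 mice but above background on 1 array, and it is named here after its values were seen.

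A further list of 20 measured genes covered the gp130, JAK-STAT3 and interleukin-1 pathways, from ligands, receptors and kinases to inhibitors and target genes. Of these, 1 was called between the sides of MCAO brains, a target gene that rose. Over all probe sets, 0.0856% were called on all arrays and 0.135% without the 4. Junb, an AP-1 transcription factor gene that cytokines and many other stimuli induce within minutes, was 1.37 ± 0.12 higher on the ischaemic side without the 4 arrays (2.58-fold, adjusted p = 0.000632 in limma, 7 of 7 mice). On all arrays it was at 1.24 ± 0.16 (adjusted p = 0.00243, 8 of 8 mice). Its interaction was 1.37 ± 0.22 without the 4 arrays (adjusted p = 0.289). The means were 8.23 and 6.86 on the ischaemic and opposite sides, and 6.18 on both sides in sham mice. Against sham ipsilateral hemispheres the difference was 2.05 ± 0.17 (adjusted p = 3.17e-05), and 2.03 ± 0.42 on all arrays, where it was not called (adjusted p = 0.696). The receptor genes Il6st, Lifr, Cntfr and Il1rap and the kinase genes Jak1, Jak2 and Tyk2 were above background on all 14 MCAO arrays and differed by -0.06 to 0.10. The other 12 genes, which include the ligand genes Il6, Lif, Osm, Il11, Il1a, Il1b and Tnf and the feedback inhibitor gene Socs3, were above background on 0 of the 14. Socs3, an early target of STAT3, was at 0.33 ± 0.21 (adjusted p = 0.825) from signals below background.

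Markers of other brain and blood cells were examined beside these genes. In the lists for neurons, oligodendrocyte lineage, microglia, endothelium, pericytes and fibroblasts, choroid plexus and ependyma, and neutrophils and monocytes, 0 genes were called in any of the 5 comparisons in limma. Over all probe sets 0.0% to 0.149% were called, depending on the comparison and the arrays used. At an unadjusted p under 0.05, each list had 0 to 2 genes between the sides of MCAO brains. There 4.13% of all probe sets passed on all arrays and 7.1% without the 4. In the other comparisons each list had 0 to 3 genes, where 0.365% to 7.48% of all probe sets passed. Without the 4 arrays the side differences of smallest p in each list were as follows. Among neuronal genes Gad1 was at 0.21 ± 0.08 and Snap25 at 0.12 ± 0.08, and among oligodendrocyte genes Sox10 was at 0.34 ± 0.10 and Cldn11 at 0.19 ± 0.08. Among microglial genes Cx3cr1 was at 0.19 ± 0.08 and P2ry12 at 0.12 ± 0.09. Cx3cr1 was above background on 3 of 7 ischaemic and 1 of 7 opposite hemispheres. Among endothelial genes Itm2a was at 0.27 ± 0.12 and Abcb1a at 0.13 ± 0.08. Among pericyte and smooth muscle genes Myh11 was at -0.27 ± 0.13, with all its signals below background, and Acta2 at -0.23 ± 0.15. Among choroid plexus genes Ttr was at -0.25 ± 0.11 and Ccdc153 at 0.17 ± 0.11, and among neutrophil and monocyte genes S100a8 was at 0.43 ± 0.10 (adjusted p = 0.187, 7 of 7 mice) and Plac8 at -0.19 ± 0.10. All signals of these 4 were below background. The medians of that comparison were -0.06 to 0.16 on all arrays and -0.06 to 0.09 without the 4, a range that holds the medians of the identity and reactive genes. Neutrophils also make Lcn2, and their part in its signal was not tested. The 9 measured neutrophil and monocyte genes were above background on 0 of 14 MCAO arrays. Of the 9 choroid plexus and ependyma genes, 8 were likewise above background on 0 of the 14. Neuronal genes were above background on all 14 for 12 of 12.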

How the data were processed

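The authors deposited log2 probe-set signals. Per the submitters' processing notes they came from Affymetrix Expression Console. Its version, the normalization and the annotation's genome build were not given in the sources used. That the scale is log2 was read from the values' range, and folds rest on that. Per the labels' protocols, RNA was prepared with mirVana Paris reagents and GeneChip WT Plus labelling. Of 29129 probe sets, 6923 controls were left out and 22206 tested without a filter on signal, of which 19572 had 1 gene symbol, 0 several and 2634 none. The 19572 gene identifiers all matched RefSeq (GRCm38.p6, names only). Where a gene had several probe sets, the one of highest mean was kept. Precision is limited by how many arrays there are.

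Comparisons were fitted with limma 3.58.1 (R 4.3.3, lmFit and eBayes) with Benjamini-Hochberg adjustment over the 22206 tested. Side comparisons and the interaction used all arrays with mouse as a fixed block, because both hemispheres come from 1 animal. Over the 20 arrays, deviations from group means correlated at 0.11 to 0.31 within mice (10 pairs, median 0.15). Between mice they correlated at -0.2 to 0.17 (48 pairs, median -0.04), so the ranges overlapped. Comparisons between mice used 1 side and no block. Identical arrays numbered 0. The fits were also run on simulated data with known changes, with noise of the same spread on every array. That run says nothing of the 4 arrays that stood apart. The genes and lists were chosen with earlier results of these data known, so the lists have no test of their own. Values in every group were given for the 4 identity and 6 reactive genes of smallest p between the sides of MCAO brains without the 4 arrays, and for any gene called. From each further list up to 4 called genes, or the 2 of smallest p in that comparison without the 4 arrays, were taken. Figures were drawn with matplotlib 3.10.9.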

Additional observations from a re-analysis of the deposited data

Results flagged for a closer look

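A sample was compared with the others of its group by the gap to its nearest neighbour over the group's range, for 30 groups of values of the 10 genes described in full and for 4 groups of arrays by the share of probe sets above background. Chance marks about 1 group in 20 by this measure, and the values are given without an explanation.

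Of the 30 groups, 1 was marked. The side difference of Lcn2 in MCAO mouse 6 was -2.05, from signals of 3.25 ipsilaterally and 5.30 contralaterally, while the other 6 MCAO mice lay between -0.48 and 0.25. Neither signal of mouse 6 was above the background of its array.

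All 4 groups of arrays were marked. The share of probe sets above background was 5.1% on the ipsilateral array of MCAO mouse 3, against 38.1 to 43.8% on the other ipsilateral MCAO arrays, and 3.4% on its contralateral array, against 37.1 to 45.1%. In sham mouse 1 it was 4.8% ipsilaterally, against 37.0 to 40.9%, and 3.0% contralaterally, against 38.2 to 40.2%. Both hemispheres of the same 2 mice were thus low, and all results are given with and without them.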

How the results depend on the processing

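Every value of the 31 genes was recomputed under 20 alternatives chosen with the design and 16 added after seeing the data, which combined them with leaving out the 4 arrays. Of 5202 values, 5201 kept their side of the threshold, and 1007 changed sign with none of these called. The exception was Sox9 between the sides of MCAO brains, at 0.39 with an adjusted p of 0.0125 without the 4 arrays and with trend and robust eBayes in limma, which made the count of identity genes called there 1. Without the 4 arrays and without dim probe sets its adjusted p was 0.0538. With all arrays, array quality weights gave 0.42 (adjusted p = 0.113). Without the replicate block, that is with the pairing of hemispheres ignored, 0 identity and 0 reactive genes were called in the 3 comparisons that use it, and Sox9 was at 0.46 (adjusted p = 1.0) on all arrays and 0.39 (adjusted p = 0.618) without the 4. Leaving out each mouse in turn left 0 genes called, with Sox9 between 0.39 and 0.53 on all arrays and between 0.33 and 0.46 without the 4. Of 688 counts and medians 3 moved beyond the spread. Without dim probe sets, which left 7 reactive genes, their median on all arrays was 0.31 between ipsilateral and 0.43 between contralateral hemispheres of MCAO and sham mice, by the removal of 13 of the 20. Signal over background limits the reactive genes, of which 10 were above it on 0 of 24 arrays.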
